A study of Homo sapiens with 10 samples.

Results

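The 7 human genes for the DNA methyltransferases and the TET dioxygenases were followed through a list of nucleosome positions from human induced pluripotent stem cells (hiPSCs). DNMT1, DNMT3A, DNMT3B, DNMT3L, TET1, TET2 and TET3 were taken by name, each as its gene body in GENCODE with 5 kb on each side, on GRCh38. The 7 genes are among 19111 protein-coding genes of the autosomes, and their loci cover 736.9 kb with 3788 of the 12921589 positions in the list. The cells were undifferentiated, unfixed hiPSCs (line PB010.5). This line has a FUCCI reporter, which marks cell cycle phases, inserted at the EEF2 locus. Permeabilized cells received micrococcal nuclease (MNase), which cleaves the linker DNA, for 5 min in amounts of 10 U, 6 U, 3 U, 1 U or 0.5 U. After digestion, mononucleosomal DNA of yeast was added to the DNA of each sample just before library preparation. Every concentration gave 1 library, read once with 150-bp and once with 50-bp paired ends, which makes 10 samples. The positions come from 1 pooled list of a single line, so there is no value per concentration, no replicate and no p-value here.

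Methylation of cytosine in CpG dinucleotides is copied to the new DNA strand by DNMT1 after replication and laid down afresh by DNMT3A and DNMT3B. DNMT3L has no catalytic activity of its own and acts as a cofactor of the de novo enzymes, chiefly in germ cells and early embryonic cells. TET1, TET2 and TET3 oxidise 5-methylcytosine, the first step of active demethylation, and pluripotent stem cells are known for high levels of DNMT3B and TET1.

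Each position is an interval of 140 bp with a score, a signal height given by the authors whose scaling is not stated. The score rises in steps of 1.23, and over the whole list its median was 14.8, or 12 steps, with quartiles of 9.87 and 19.7 and a maximum of 149.3. The list holds no read totals, and neither the depth behind a score nor its counting error is known. Scores rose with GC content inside every one of the 7 loci, with Spearman's rho across positions between 0.316 in DNMT3B, over 322 positions, and 0.549 in DNMT3L, over 75 positions. Positions of a locus come from the same pooled libraries and are not replicates. Numbers of positions, mean scores and percentiles were therefore set against the same chromosome at the same GC content, whereas gaps, spacing and exonic medians were set against all genes, starts or neighbours without matching unless stated.

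DNMT3L needs a separate word before any comparison. No position lay in chr21:44200912-44253421, a stretch of 52510 bp without an unknown base in the reference that runs into the 3′ part of the gene on the minus strand. It takes up 44.6% of the DNMT3L gene, with 4 of the 12 exons of its canonical transcript, and all of its 3′ flank. The authors supplied a list of blacklisted regions to their workflow, and whether this stretch was among them was not tested. DNMT3L is described below from the remaining 13.8 kb, where 75 positions were found.

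The first question was how densely the loci were filled. For each locus the positions were divided by the number expected from 1-kb windows of the same GC percent elsewhere on its chromosome. More positions than expected were found at 6 of the 7 loci, against 82.6% of all protein-coding genes, so the share is near the background. Over all loci 3788 positions stood against 3604 expected.

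Among the methyltransferases, DNMT1 (chr19:10133342-10231286, minus strand) held 600 positions in its locus, 1.05 times the expectation. DNMT3A (chr2:25227855-25342590, minus strand) held 690 positions, a ratio of 1.06, and DNMT3B (chr20:32762385-32809359, plus strand) held 322, a ratio of 1.04. DNMT3L (chr21:44246339-44262216, minus strand) had a ratio of 0.715 over the whole locus, with only 4.11% of genes below it, but 1.31 once the empty stretch was left out of the locus. The windows behind the expectation still included empty ones, and with those also left out the ratio was 0.979, so no direction is read for DNMT3L.

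The TET loci lay in the same narrow range. TET1 (chr10:68560337-68694487, plus strand) held 729 positions at a ratio of 1.06. TET2 (chr4:105145875-105279816, plus strand) held 650 at 1.07, and TET3 (chr2:73984910-74108176, plus strand) held 722 at 1.08. The median of all genes was 1.06, and overlapping stretches of the same length on the same chromosome had an SD between 0.122 for TET2 and 0.231 for DNMT1, so the 6 ratios did not differ from each other or from 1 by more than that spread.

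The loci differed more in score than in number. The mean score minus the score expected at the same GC content was above 0 at 4 of the 7 loci, where 60.4% of all protein-coding genes were above 0. TET3 stood highest, with a mean score of 19.5 where 17.8 was expected, an excess of 1.69 that was larger than in 91.7% of genes. DNMT3A followed with 21.4 against 19.9, an excess of 1.44, larger than in 87.6% of genes. The SD of the excess over overlapping stretches of the same length was 1.03 for both, and no other locus had an excess larger than its own SD. Against the median of same-length stretches of the chromosome with GC content within 1 percentage point, the 2 loci were still the highest. The difference in mean score was smaller there, 1.09 for TET3 and 0.884 for DNMT3A. Its own spread was not estimated, and the SD of the excess is no measure for it.

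DNMT3B, the de novo enzyme typical of pluripotent cells, lay at the other end. Its mean score was 18.1 where 18.9 was expected, a difference of -0.855 within an SD of 1.12, and 15.1% of genes were lower. Against the median of the same-length stretches of similar GC content its mean score was at -1.24, a difference whose own spread was not estimated. DNMT1 (0.384) and TET1 (0.301) were close to the median gene at 0.265, while DNMT3L (-0.228) and TET2 (-0.330) were slightly below expectation, all within their SD. Against same-length stretches the sign turned for DNMT1 (-0.0073), DNMT3L (0.117) and TET2 (0.0253), so no direction is read for these 3. In the order of the excess, TET3, DNMT3A, DNMT1, TET1, DNMT3L, TET2 and DNMT3B, only the step from DNMT3A to DNMT1 was about as large as the SD, and the others were smaller.

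The share of high-scoring positions was likewise largest in TET3 and DNMT3A. Positions in the top 10% for their GC content, at or above the 90th percentile on the chromosome, made up 16.9% of those in TET3 and 16.7% of those in DNMT3A, compared with 11.6% of all autosomal positions, a share above 10% because of the stepped scores. The share was 12.6% in TET1, 10.8% in TET2, 10.7% in DNMT3L, 9.0% in DNMT1 and 8.70% in DNMT3B. These shares come from the same scores as the excess and are not a second line of evidence.

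**Figure D1:**
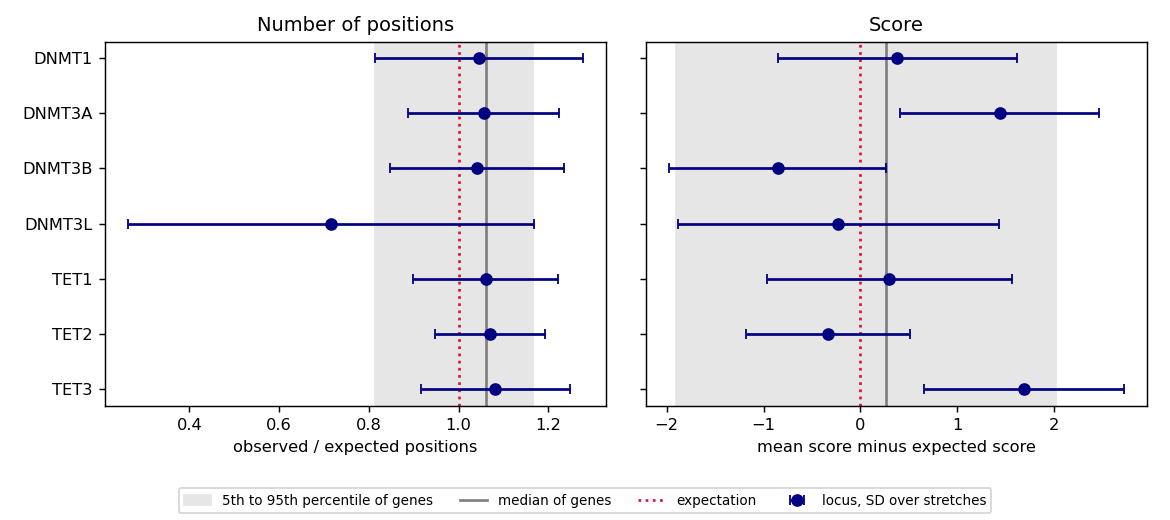
Observed over expected positions (left) and mean score minus the score expected at the same GC content (right) for the 7 loci, with bars for the SD over overlapping stretches of the same length on the chromosome, the band from the 5th to the 95th percentile of all protein-coding genes and their median. All loci but DNMT3L lie between 1.04 and 1.08 on the left, and TET3 (1.69) and DNMT3A (1.44) are farthest above 0 on the right.

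Along the genes, the high scores of TET3 and DNMT3A were spread over the gene body and were not gathered at the start. Of the complete bins of 5 kb counted from the canonical start, 23 of 26 were above expectation in TET3, 18 of 24 in DNMT3A and 2 of 11 in DNMT3B, where 55.1% of such bins over all protein-coding loci were above it. Bins of a gene come from the same scores as its mean excess and were not tested. The bin with the largest excess lay 15 to 20 kb into TET3, where 27 positions had a mean score of 26.0 against 21.2 expected. In DNMT3A it lay 35 to 40 kb downstream of the start, where 29 positions averaged 25.02 against 20.1.

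In DNMT3B the bins from the start to 40 kb were all below expectation, lowest from 20 to 25 kb with 15.7 against 18.8, and the 2 bins above it lay from 40 to 50 kb, at the 3′ end of the gene. DNMT1 was above expectation in 14 of 21 bins, TET1 in 19 of 28 and TET2 in 10 of 28. The complete bins of DNMT1 begin at -40 kb, because its 5′-most annotated start lies at -36333 bp from the canonical one. In TET2 the excess of the complete bins ranged from -1.74 to 1.02, the narrowest range among the loci with more than 3 complete bins that hold positions. The complete bins with any position held 16 to 32 of them, those of DNMT3L in the empty stretch held none, and no spread was estimated for a single bin.

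**Figure D2:**
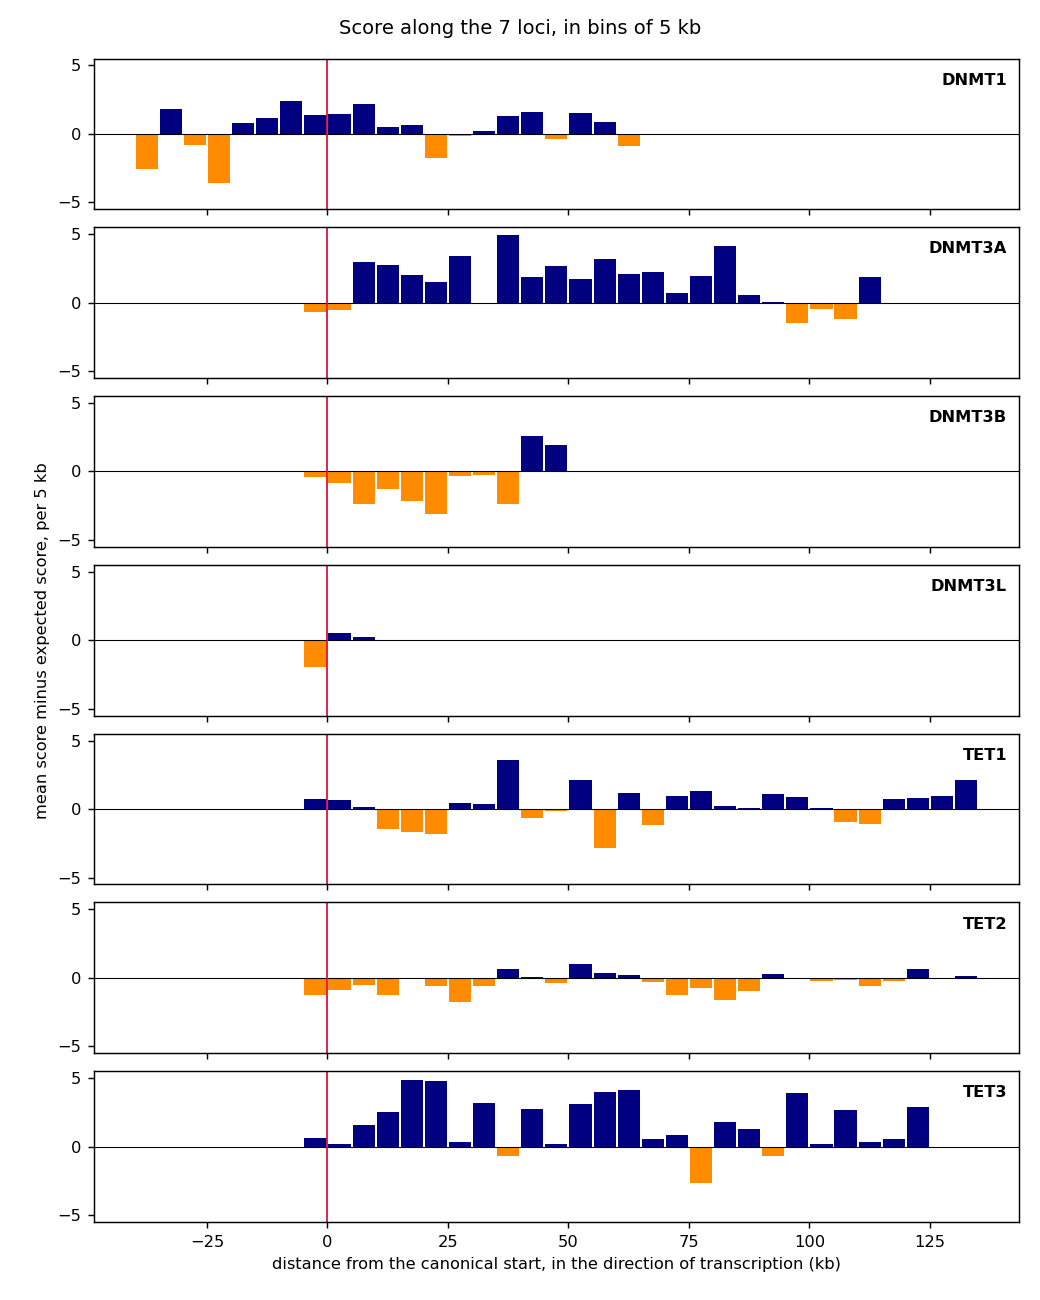
Mean score minus the score expected at the same GC content in complete bins of 5 kb along the 7 loci, against distance from the canonical start in kb in the direction of transcription. TET3 (23 of 26 bins) and DNMT3A (18 of 24) are mostly above 0, DNMT3B (2 of 11) mostly below, and DNMT3L has only 3 bins with positions.

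The transcription start was examined next, where active genes often show a nucleosome-depleted region between a −1 and a +1 nucleosome. The gap at a start was measured as the distance between the nearest midpoints upstream and downstream and taken as wide from 300 bp. Wide gaps were found at 2 of the 7 canonical starts, those of DNMT1 and TET1, against 29.2% of all protein-coding genes. The median gene had a gap of 230 bp.

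At DNMT1 the gap measured 390 bp, wider than at 87.5% of genes, between a position at -248 bp with a score of 27.1 and one at 142 bp with a score of 39.5. At TET1 it measured 330 bp, between a position at -236 bp scoring 19.7 and one at 94 bp scoring 25.9. The other 5 genes had gaps from 190 to 220 bp, close to the ordinary distance between neighbours. A gap in the list is a stretch without a called position and gives no measure of accessibility.

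The free stretch upstream of TET1 is shown because it is the DNA between the −1 position and the start. It is read on the coding strand from the GRCh38 reference with CpG dinucleotides in capitals. The TET1 stretch, chr10:68560172-68560346 on the plus strand, has 175 bases, 8 CpGs and 59.4% GC, and transcription starts at base 166.
TET1: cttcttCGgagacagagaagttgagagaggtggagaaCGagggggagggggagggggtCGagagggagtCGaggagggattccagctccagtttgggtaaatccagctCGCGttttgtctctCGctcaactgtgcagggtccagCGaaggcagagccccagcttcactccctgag

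A strong +1 position was the second feature of interest. The nearest downstream position was in the top 10% for its GC content at 2 of the 7 canonical starts, DNMT1 and DNMT3B, against 22.6% of genes. In DNMT3B it lay at 76 bp with a score of 44.4, at the 96.8th percentile of positions of its GC class, meaning that 96.8% of them scored lower. The position upstream of it, at -144 bp, scored only 12.3. For the +1 positions of DNMT3B, DNMT3A and TET3 the percentiles come from classes in which several GC percents were joined. In DNMT1 the +1 position was at the 92.7th percentile.

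The remaining starts had +1 positions of middling score. These lay at 135 bp in TET2 (24.7, percentile 72.4), at 184 bp in DNMT3A and 151 bp in TET3 (both 22.2, percentile 69.2), at 94 bp in TET1 (percentile 68.9) and at 76 bp in DNMT3L (24.7, percentile 55.4). The start itself lay under a called position in DNMT3A, with a midpoint at -6 bp, and in TET3, with a midpoint at -69 bp. Of the 7 canonical starts, only that of DNMT1 combined a wide gap with a +1 position in the top 10%, a combination found at 8.1% of all canonical starts.

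Further out, single positions of high score stood on either side of the starts. DNMT3L had its highest score of the locus, 45.7, at 466 bp, followed by 39.5 at 696 bp. TET3 had a score of 45.7 at -819 bp, and TET2 had one of 38.2 at -495 bp. This TET2 position is also the nearest one downstream of another annotated start, shared by TET2-207 and TET2-209 at -583 bp. It lay 88 bp from that start (percentile 94.3 for its GC content). Over the 1000 bp upstream, the mean score of TET1 was 5.89 above expectation from 5 positions, and over the 1000 bp downstream that of DNMT3B was 6.19 above expectation from 5 positions. The downstream side of DNMT3A, TET3 and TET1 was below expectation, by -5.11, -4.35 and -3.83. These values rest on 4 to 6 positions each. For all downstream positions of DNMT3A, and some of those of DNMT3B and TET3, the expected score comes from joined GC classes.

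**Figure D3:**
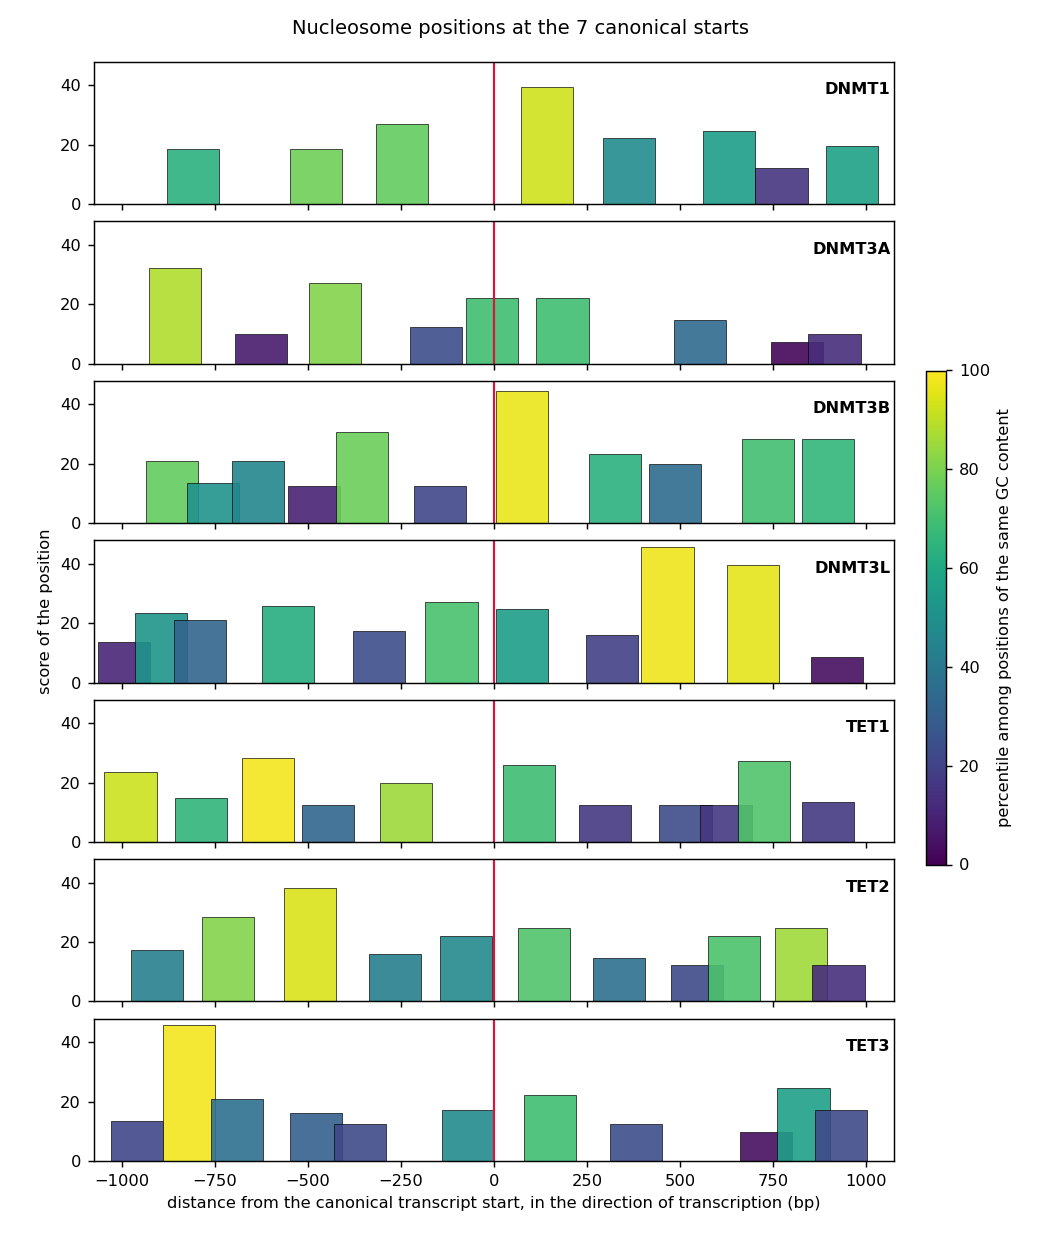
Positions within 1000 bp of the 7 canonical starts, drawn as bars of 140 bp at their distance from the start in bp, with the score as height and the percentile among positions of the same GC content as color. DNMT1 and TET1 have an empty stretch at the start (gaps of 390 and 330 bp), and the bars next to the start are highest in DNMT3B (44.4) and DNMT1 (39.5).

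The 7 genes have 92 distinct annotated transcript starts, many of which share the same neighbouring positions and are not independent. A wide gap was found at 13 of them, against 24.2% of the annotated starts of all protein-coding genes. One of the 13 is the start of DNMT3L-203 inside the empty stretch on chromosome 21, and without it 12 of 91 were wide. DNMT1 had 8 wide starts of 43, and 6 of these share the gap of 390 bp.

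DNMT3A has an internal promoter for a shorter protein, and this start differed from the canonical one. At the internal start of DNMT3A-203 and DNMT3A-205, 89614 bp downstream, the gap measured 370 bp, between positions scoring 17.3 at -170 bp and 19.7 at 200 bp, whereas the canonical start with its gap of 190 bp was covered. The start of DNMT3A-217 lies in the same gap. The free stretch upstream of the internal start, chr2:25252302-25252411 on the minus strand, has 110 bases, 5 CpGs and 71.8% GC, and its last 10 bases are transcribed. It is shown on the coding strand with CpGs in capitals, for comparison with TET1.
DNMT3A: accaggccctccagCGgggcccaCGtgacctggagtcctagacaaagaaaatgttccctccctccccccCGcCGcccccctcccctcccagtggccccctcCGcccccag

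The most downstream start of a protein-coding transcript was wide in 0 of the 6 genes with more than 1 annotated start, against 22.3% of all such genes. It measured 160 bp in DNMT1, 140 bp in DNMT3A, 140 bp in DNMT3B, 190 bp in DNMT3L, 100 bp in TET2 and 190 bp in TET3. Outside the empty stretch of DNMT3L, the widest gap at any of the starts was 460 bp, at DNMT3B-218, a transcript not annotated as protein-coding that starts 32756 bp into the gene. None of the 8 starts of TET2 or the 4 starts of TET3 was wide, their widest gaps being 220 bp at TET2-207 and TET2-209, which share a start, and 280 bp at TET3-204. In DNMT3L the start of DNMT3L-203 has the widest gap, 52650 bp across the empty stretch, followed by 245 bp at DNMT3L-201. At 66 of the 92 starts a called position lay over the start, against 60.0% of the annotated starts of all protein-coding genes.

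**Figure D4:**
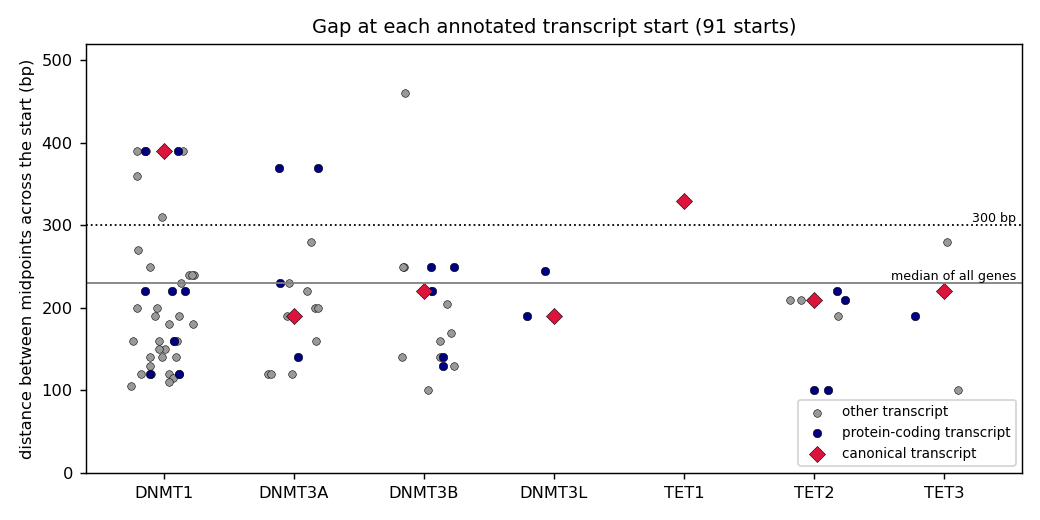
Distance between the nearest midpoints upstream and downstream of each annotated transcript start, in bp, by gene and kind of transcript, without the DNMT3L-203 start in the empty stretch. The dotted line is 300 bp, and 12 of the 91 starts lie above it, 8 of them in DNMT1.

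Between starts, neighbouring positions in the 7 loci were spaced as on their chromosomes or slightly closer. The median distance over all loci was 170 bp, with 160 bp in DNMT3B, 165 bp in DNMT1, 170 bp in DNMT3A, TET1 and TET3, 180 bp in DNMT3L and 190 bp in TET2. Neighbours 300 bp or more apart made up 14.3% of all autosomal pairs. Against its own chromosome the share was lower in the covered part of DNMT3L (2.70% against 16.8%), in DNMT3A (5.66% against 14.6%) and in TET3 (6.94% against 14.6%). In DNMT3L this was 2 of 74 pairs, and none of these shares was matched on GC content. The contrast was smaller in DNMT3B (6.23% against 11.0%) and DNMT1 (6.85% against 10.3%), and the share was close to the chromosome in TET1 (12.5% against 13.6%) and TET2 (18.2% against 17.9%). TET1 and TET2 had the largest shares of such neighbours and the lowest GC content, 42.0% and 36.4%, although the median distance of TET1 was that of DNMT3A and TET3.

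The widest free stretch of TET3 lay in an intron 75751 bp from the start, with 820 bp between midpoints, in the bin from 75 to 80 kb that was also the lowest of its gene in score. That of TET2 measured 670 bp, with 810 bp between midpoints, and lay at -3960 bp from the canonical start, at 28.1% GC. TET1 had one of 580 bp in its last exon, exon 12, with 720 bp between midpoints. The free stretch of DNMT3B measured 455 bp, with 595 bp between midpoints. It spans the end of the last exon, exon 23, and runs into the 3′ flank. In DNMT1 and DNMT3A the widest measured 440 bp, with 580 bp between midpoints, in an intron and in the 3′ flank. In the covered part of DNMT3L it measured 380 bp, with 520 bp between midpoints.

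The highest score of the locus lay within 1000 bp of the canonical start in DNMT3L. In TET2 the highest score of 38.2 was shared by at least 3 positions. Among them were those at -495, 35395 and 100995 bp, of which the first is near the start. The highest of all, 66.6, belonged to an intronic position of DNMT3B at chr20:32789992-32790131, 27676 bp from the start, at the 99.99th percentile for its GC content of 49%. Another position, of 43.2, lay 300 bp further on, in a locus whose mean score was below expectation. DNMT3A reached 65.4 in an intron at chr2:25314732-25314871, and TET3 reached 60.5 in its upstream flank at chr2:73981202-73981341. DNMT1 and TET1 both reached 44.4, in an intron 38912 bp and 1934 bp from the start.

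The next question was whether exons and introns differed. Positions with at least 0.40 of their length in exons were compared with those touching no exon. The exonic median score was above the intronic one in 6 of the 7 genes, and in 5 of the 6 with at least 10 exonic positions, against 58.4% of all genes with that many. The difference was largest in DNMT3B, with 22.2 over 30 exonic positions against 17.3 over 219 intronic ones. In DNMT1, TET2 and TET3 it was 2 steps, in DNMT3A 1 step, and in TET1 both medians were 14.8. DNMT3L had only 8 exonic positions, with 20.4 against 18.5.

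Exonic positions were richer in GC than intronic ones in every gene but TET1, for example 56.4% against 49.2% in DNMT3B. Once the score expected from GC content was subtracted, exonic positions were higher in 2 of the 7 genes, DNMT3B (-0.804 against -1.71) and DNMT3A (0.865 against 0.716). Among genes with at least 10 exonic positions this makes 2 of 6, against 51.9% of all such genes. In TET2 the order turned to -1.18 in exons against -0.607 in introns. In DNMT1, DNMT3L, TET2 and TET3 the exonic median was the higher one before this step and the lower one after it.

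**Figure D5:**
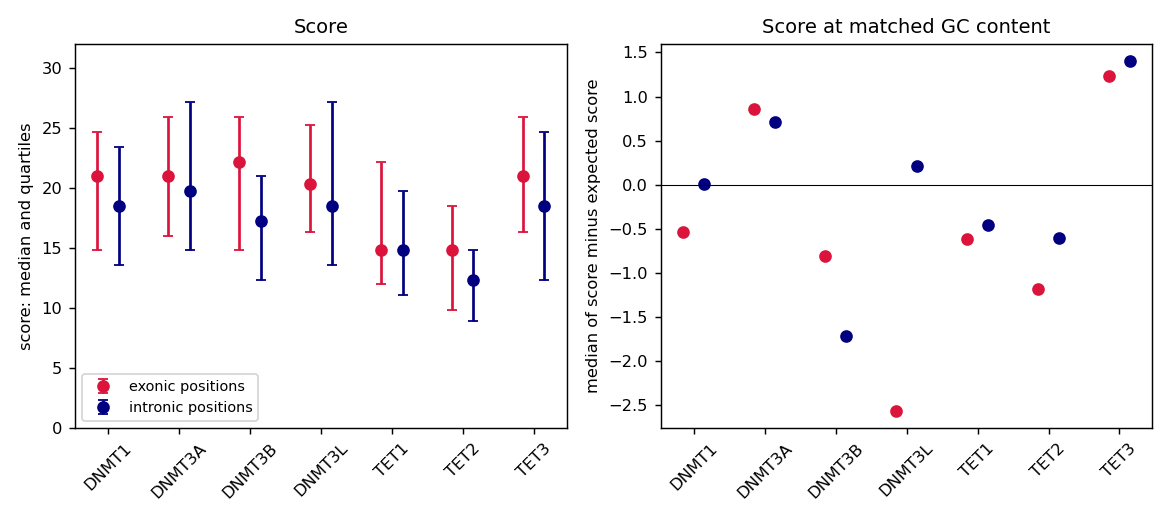
Median score with quartiles of exonic and intronic positions (left) and the median of the score minus the score expected at the same GC content (right) in the 7 genes. Exonic medians are above intronic ones in 6 genes on the left but in 2 genes, DNMT3A and DNMT3B, on the right.

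The exons that code for the catalytic motifs were looked at one by one. In the methyltransferases this is the Pro-Cys motif whose cysteine attacks the target base, and in the TET proteins the HxD motif that binds the iron of the active site. All 3 TET genes encode the motif in an exon of 138 bp, exon 10 of TET1, exon 9 of TET2 and exon 10 of TET3, and DNMT3A and DNMT3B encode theirs in an exon of 91 bp, exon 18 in both. These exons are shown on the coding strand from GRCh38, with the codons of the motif in capitals, because paralogs can be compared here base by base. They lie at chr10:68682836-68682973 (TET1, plus), chr4:105269610-105269747 (TET2, plus), chr2:74093529-74093666 (TET3, plus), chr2:25240640-25240730 (DNMT3A, minus) and chr20:32800835-32800925 (DNMT3B, plus).
TET1: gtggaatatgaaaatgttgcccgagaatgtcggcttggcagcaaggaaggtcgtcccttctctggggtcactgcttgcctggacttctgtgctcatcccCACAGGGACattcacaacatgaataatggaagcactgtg
TET2: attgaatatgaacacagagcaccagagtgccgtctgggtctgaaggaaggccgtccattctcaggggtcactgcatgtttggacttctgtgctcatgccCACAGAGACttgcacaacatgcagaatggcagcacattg
TET3: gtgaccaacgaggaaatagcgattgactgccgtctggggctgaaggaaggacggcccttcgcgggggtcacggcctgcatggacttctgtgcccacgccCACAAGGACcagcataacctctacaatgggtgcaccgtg
DNMT3A: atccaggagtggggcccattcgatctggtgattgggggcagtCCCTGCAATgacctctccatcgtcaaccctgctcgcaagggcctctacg
DNMT3B: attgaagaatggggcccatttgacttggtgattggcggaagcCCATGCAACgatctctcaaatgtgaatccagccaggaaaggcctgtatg

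Of the 6 motifs, 5 lay under a called position, where 70.9% of the coding bases of all canonical transcripts were covered in this way. In all 3 TET genes the motif begins at base 100 of the exon and was covered, with the midpoint 38 bp away in TET1, 12 bp in TET2 and 9 bp in TET3. The scores differed, with 12.3 in TET1, 19.7 in TET2 and 20.97 in TET3, none of them high for its GC content (percentiles 15.6, 51.6 and 39.5). The exons of TET1 and TET2 shared 106 of 138 bases, those of TET2 and TET3 97 and those of TET1 and TET3 94. The exons of DNMT3A and DNMT3B shared 66 of 91 bases. In DNMT3B the motif lay under a position of score 25.9 with its midpoint 40 bp away, while in DNMT3A the nearest midpoint was 103 bp away and the motif was not covered. DNMT1 encodes its motif in exon 33 of 283 bp, under a position of score 18.5. DNMT3L has no such motif.

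The members were finally set beside 45 other genes of DNA methylation and demethylation, among them readers of methylated CpG, cofactors of maintenance, base excision repair enzymes and enzymes of methyl donor supply. TRIM28 had no position on one side of its start, which left 44. Wide gaps were found at 18 of the 44 canonical starts (40.9%, against 29.2% of all genes), with gaps from 100 to 540 bp and a median of 242.5 bp. With the 5′-most start of each gene there were 20 of 44 (27.6% of all genes). Without positions scoring below the median there were 35 of 44 (64.1%). At the canonical starts the contrast was smaller at other cuts of the gap. There were 21 of 44 from 250 bp (43.3% of all genes) and 6 of 44 from 400 bp (11.3%). Among the widest were those at EHMT1 (540 bp), a histone H3 lysine 9 methyltransferase, MBD3 (530 bp), a subunit of the NuRD complex, SETDB1 (420 bp), a further histone H3 lysine 9 methyltransferase, and SMUG1 (420 bp), a uracil DNA glycosylase.

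A +1 position in the top 10% was found at 11 of the 44 (25%, against 22.6% of all genes), which is near the background. The highest percentiles were at CDCA7L (97.5), a paralog of the HELLS cofactor CDCA7, APEX1 (96.4), the endonuclease of base excision repair, CXXC5 (96.1), a CXXC zinc finger protein, and the methyl-CpG-binding domain genes MBD6 (95.7) and MBD1 (95.6). DNMT3B, at 96.8, would rank just after CDCA7L, and DNMT1, at 92.7, below all 5. Of these 5 genes, APEX1 (390 bp), CXXC5 (360 bp) and MBD1 (330 bp) also had a wide gap. These 5 were chosen for their +1 position, so the share of 8.1% of all canonical starts with both features is no measure for them.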

How the data were processed

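The series holds 10 MNase-seq samples, 5 digestions of hiPSCs read at 2 read lengths. Per the methods of the study, the shallower 50-bp data were dropped after the profiling step failed on them, so the pooled list may rest on the 5 samples with 150-bp reads, but the runs pooled are not named in the sources used here. The authors trimmed reads (the submitters' notes name Trimmomatic 0.40) and ran the nucMACC workflow with GRCh38 and a list of blacklisted regions. The program that called the positions and the scaling of the score are not given in the sources used here. The deposited list holds 1 signal per position, pooled over libraries, with no counts and no depth per position. All positions of chromosomes 1 to 22 entered the background, and no position was filtered.

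Midpoints were compared with transcripts of GENCODE release 44, where the methods of the study name release 48. Coordinates are 1-based on GRCh38. Expected numbers of positions came from the other 1-kb windows of the chromosome with the same GC percent. Expected scores and percentiles came from the chromosome's positions with the same GC percent over 147 bp, and GC percents with fewer than 200 positions were joined to the nearest fuller one. A position was exonic with 0.40 of its 140 bp in merged exons of protein-coding transcripts. The calculations were tested on simulated data. Python 3.11.15, NumPy 2.4.6, pandas 2.3.3 and matplotlib 3.10.9 were used.

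The 7 genes and the list of 45 pathway genes were chosen with earlier results of these data known. All 7 genes were named. The starts named were the canonical one, the most downstream one of a protein-coding transcript and the one with the widest gap in each gene. Of the pathway list the 5 widest gaps and the 5 highest downstream percentiles were named, except 1 gene that is not reported here. Of each locus the highest score and the widest free stretch were examined. Of exons the one with the catalytic motif was named, and the motif of the methyltransferases was widened from PCQ to PCQ or PCN after the sequences were seen. Other items (bins, the empty stretch at DNMT3L, further high-scoring positions near the starts) were chosen after their values were seen.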

Additional observations from a re-analysis of the deposited data

How the results depend on the processing

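Of 36 alternatives to 9 results, 22 left the value within 1.5 times the main count or within the spread, and 14 moved it. No paired analysis was possible because 1 pooled list holds no replicates. Wide gaps at canonical starts fell from 2 to 1 of 7 with the 5′-most start of each gene (27.6% of all genes at that setting) and to 0 from 400 bp (11.3%). In DNMT1 the 5′-most start is a different one, at -36333 bp from the canonical start, with a gap of 220 bp. High-scoring +1 positions rose from 2 to 4 of 7 without matching on GC content (41.3%). In the pathway list, wide gaps changed from 18 to 35 of 44 when positions scoring below the median were dropped (64.1% of all genes) and to 6 from 400 bp (11.3%), and high-scoring +1 positions from 11 to 21 without GC matching (41.3%) and to 21 at the 75th percentile (40.7%). Exons above introns fell from 6 to 2 at matched GC content (51.9% of all genes with at least 10 exonic and 10 intronic positions). The median distance moved from 170 to 220 bp once the lower-scoring positions were dropped and to 160 bp with pairs no more than 300 bp apart. Wide gaps at annotated starts changed from 13 to 33 of 92 without the lower-scoring positions (59.5% of the annotated starts of all genes), to 6 of 31 with protein-coding transcripts only (25%), to 21 of 92 from 250 bp (37.0%) and to 2 of 92 from 400 bp (9.69%). Fewer positions and other thresholds change these counts by construction, and other causes were not tested. Against same-length stretches of similar GC content, 5 loci instead of 4 scored above, but DNMT1, DNMT3L and TET2 changed sign. An alternative chosen after seeing the data left out 1-kb windows without positions: 6 of 7 loci still exceeded expectation, with ratios from 1.01 to 1.04 and 0.979 for DNMT3L, and the share of all genes above 1 fell to 68.2%. Background windows low in repeats were not run, because the reference was given without repeat masking. The depth behind a single position is not in the list, so whether coverage differed at the gaps was not tested.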

Other observations

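The empty stretch at DNMT3L touched 3 protein-coding genes, DNMT3L, GATD3 and ICOSLG. Over the autosomes, 768 stretches of 10000 bp or more held no position although the reference has no unknown base in their complete 1-kb windows. They cover 29.8 Mb, 114 of them are 50000 bp or longer, and 14 lie on chromosome 21.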
